A study of Mus musculus with 24 samples.

Results

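The CHD genes encode chromodomain helicase DNA-binding proteins, ATP-driven enzymes that slide, space or exchange nucleosomes. All 9 mouse members, Chd1 to Chd9, were taken by gene symbol from the RPKM tables of cultured myoblasts and of sorted satellite cells, among 46078 genes listed there. Satellite cells are the resident stem cells of skeletal muscle, and the study removed Chd4 from them to examine how lineage identity is kept during regeneration. In vitro, proliferating primary myoblasts derived from satellite cells of uninjured muscle, with the genotype Chd4fl/fl, received a Cre adenovirus (AdCRE) or a GFP adenovirus (AdGFP) for 72 hours. In vivo, SCA1-, CD45-, alpha7-integrin+ and CD34+ cells were isolated from limb muscle of Chd4dPax7ER mice and of Chd4fl/fl mice, 3 days after injury with cardiotoxin. All mice were C57BL/6 and 2 to 4 months old. Each of the 4 groups had 4 RNA-seq libraries, and the 8 ATAC-seq samples of the series were not analysed here.

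Cre came from a virus in 1 culture group only, so effects of Cre itself and of Chd4 loss cannot be told apart in vitro. Of the in vivo genotypes only Chd4dPax7ER names Pax7ER, and the labels do not say whether Chd4fl/fl mice had the same Cre or inducer. The labels do not say that the numbered libraries came from separate cultures or animals, so each p-value refers to the spread among these libraries alone, which may be technical. In a bulk library, fewer cells that express a gene and less RNA of it per cell cannot be told apart.

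The family is usually divided by domain structure. Chd1 and Chd2 carry a DNA-binding domain beside their tandem chromodomains. Chd3, Chd4 and Chd5 carry paired PHD fingers and serve as alternative motor subunits of NuRD, a complex that joins nucleosome remodelling to histone deacetylation. Chd6, Chd7, Chd8 and Chd9 form the remaining subfamily, in which Chd7 and Chd8 are best known from human developmental disorders. Chd5 is known mainly from neurons and testis, whereas Chd4 is found in most tissues.

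In control cells Chd4 was the most abundant CHD transcript and Chd5 the least. RPKM scales a gene's reads to its length and to the size of the library, so levels can be set side by side within a library. In AdGFP myoblasts the order of mean RPKM was Chd4, Chd3, Chd1, Chd8, Chd2, Chd7, Chd9, Chd6 and Chd5, and Chd4 made up 54.2% ± 1.78 (SD, n = 4) of the summed RPKM of the 9 genes. In Chd4fl/fl satellite cells the order was Chd4, Chd1, Chd3, Chd2, Chd8, Chd7, Chd6, Chd9 and Chd5, with Chd4 at 50.5% ± 1.73 (SD, n = 4). Some neighbours in these orders did not differ beyond their spread. Chd8 exceeded Chd2 in only 1 of 4 AdGFP libraries, and Chd1 exceeded Chd3 in 2 of 4 Chd4fl/fl libraries. After Chd4 loss Chd3 headed both orders. It stood above Chd4 in all 4 AdCRE libraries, with no overlap of their ranges, but in only 2 of 4 Chd4dPax7ER libraries.

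**Figure D1:**
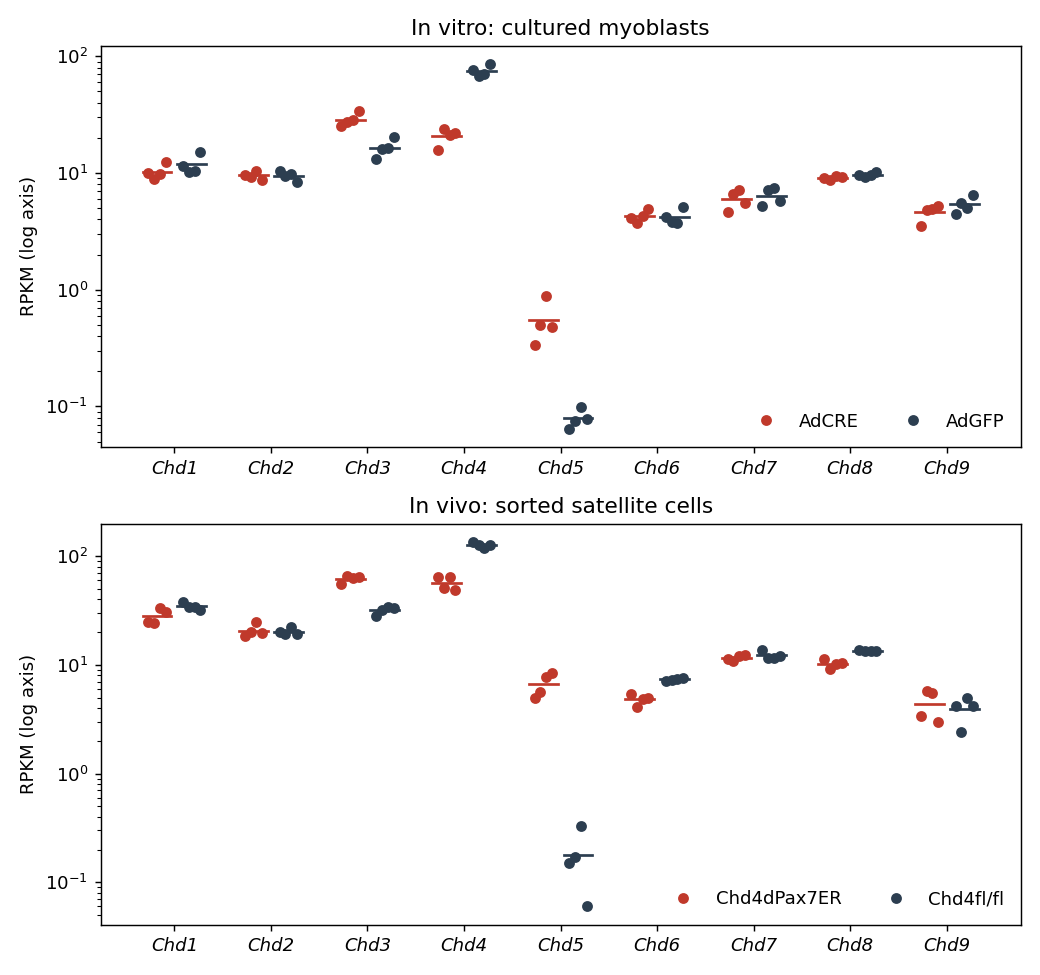
RPKM of Chd1 to Chd9 on a log axis, with 1 point per library and a line at each group mean; the upper panel shows AdCRE (red) and AdGFP (dark) myoblasts, the lower panel Chd4dPax7ER (red) and Chd4fl/fl (dark) satellite cells. Groups do not overlap for Chd3, Chd4 and Chd5 in vitro, nor for Chd3, Chd4, Chd5, Chd6 and Chd8 in vivo.

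Of the genes that changed, Chd4 and Chd5 moved in opposite directions, and their RefSeq promoters (GRCm38.p6, 250 bases before to 50 after an annotated start) are shown so that both loci can be inspected. The Chd5 window lies at chr4:152338401-152338700 and the Chd4 window at chr6:125095913-125096212, both on the + strand. Each gene has a second annotated start in the table, with a window at chr4:152338404-152338703 for Chd5 and at chr6:125095731-125096030 for Chd4. Capitals mark the E-box CANNTG, the core element that myogenic bHLH factors such as MyoD can bind; it reads the same on both strands.
Chd5: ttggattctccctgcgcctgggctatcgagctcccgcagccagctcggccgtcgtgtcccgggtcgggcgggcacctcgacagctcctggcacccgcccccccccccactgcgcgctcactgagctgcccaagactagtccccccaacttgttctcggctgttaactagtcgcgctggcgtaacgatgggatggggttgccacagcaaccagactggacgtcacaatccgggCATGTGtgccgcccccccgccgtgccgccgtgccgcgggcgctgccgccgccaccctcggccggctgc
Chd4: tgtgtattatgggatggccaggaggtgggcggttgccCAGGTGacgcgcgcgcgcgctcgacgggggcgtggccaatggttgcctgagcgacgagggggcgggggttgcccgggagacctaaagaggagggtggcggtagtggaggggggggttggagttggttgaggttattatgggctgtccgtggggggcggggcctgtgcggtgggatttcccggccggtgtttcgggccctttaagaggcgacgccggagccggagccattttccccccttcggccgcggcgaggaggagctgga
Each window held 1 E-box, and 72.3% of the 32851 promoters of the same length held at least 1. Both windows shown were rich in CG dinucleotides, with 32 in the Chd5 window and 29 in the Chd4 window against a median of 7 over all promoters. GC content was 70.7% for Chd5 and 68.3% for Chd4, against a median of 52.7%. The other Chd4 window, at the upstream start, had 17 CG dinucleotides and a GC content of 57%.

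Chd4, the targeted gene (ENSMUSG00000063870, chr6:125095980-125130591), was reduced but present in every case library. AdCRE replicates 1 to 4 held 15.8, 23.9, 21.3 and 22.1 RPKM, against 76.2, 67.8, 70.8 and 85.5 RPKM in AdGFP. Chd4dPax7ER replicates held 64.1, 50.4, 63.8 and 48.7 RPKM, against 135.1, 125.8, 118.6 and 126.0 RPKM in Chd4fl/fl. No case library reached its control range in either setting. The fall left 27.7% of the AdGFP mean (log2 fold change -1.84, SE 0.13, limma adjusted p = 0.00374) and 44.9% of the Chd4fl/fl mean (-1.16, SE 0.10, adjusted p = 0.000152). The labels do not say which part of the gene recombination removes, so remaining intact transcript and transcript of a recombined allele cannot be told apart.

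The fall of Chd4 was smaller in vivo by 0.68 on the log2 scale (SE 0.18, 95% interval 0.31 to 1.06, limma adjusted p = 0.0429 over 11941 genes tested in both tables). Of the 8 members in that fit 1 passed, where 4.12% of all genes did. The call is narrow: it was lost in 4 of the alternative settings (adjusted p up to 0.0665) and on leaving out 1 library, except where that library was AdCRE replicate 1 or 2 or Chd4dPax7ER replicate 2 or 4 (adjusted p up to 0.0813). The fall was smaller in vivo under each of these settings. With the replicate number as a block the difference passed (limma adjusted p = 0.0265). That block also joins in vivo libraries by number, which does not pair them.

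Chd3, the closest widely expressed paralogue and likewise a NuRD ATPase (ENSMUSG00000018474, chr11:69343273-69369499), was higher where Chd4 was lower. It stood at 25.1, 27.1, 28.3 and 33.8 RPKM in AdCRE replicates 1 to 4, against 13.2, 15.98, 16.4 and 20.2 RPKM in AdGFP. In vivo it stood at 55.2, 65.6, 62.6 and 63.6 RPKM in Chd4dPax7ER, against 27.9, 32.0, 34.3 and 33.0 RPKM in Chd4fl/fl. The groups did not overlap in either setting. In vivo the rise passed the test (ratio of means 1.94, log2 fold change 0.95, standard error 0.08, limma adjusted p = 0.00016). In vitro the ratio was 1.74, and the same test just missed its threshold (0.78, SE 0.14, limma adjusted p = 0.0558).

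The cultures are paired by replicate number, and within pairs Chd3 was 1.90, 1.70, 1.73 and 1.67 times as high with AdCRE as with AdGFP, a narrow range. With the replicate number as a block, Chd3 passed in vitro (limma adjusted p = 0.00016), and it did so without any 1 pair (adjusted p up to 0.00247). The fold changes of Chd3 in the 2 settings differed by 0.16 (SE 0.17, 95% interval -0.19 to 0.52, limma adjusted p = 0.664), an interval that leaves room for a larger or a smaller rise in vivo.

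Chd5, the paralogue best known from neurons (ENSMUSG00000005045, chr4:152338646-152390194), showed the largest ratio of the 9 genes in both settings, from a base near 0. In vivo it held 4.98, 5.59, 7.67 and 8.42 RPKM in Chd4dPax7ER replicates 1 to 4, against 0.15, 0.17, 0.33 and 0.06 RPKM in Chd4fl/fl. These values correspond to about 319 to 544 reads in Chd4dPax7ER, against about 4 to 19 reads in Chd4fl/fl. The ratio of means was 37.5, and the log2 fold change was 3.39 (SE 0.21, limma adjusted p = 2.8e-05) on a scale that understates low genes. With a pseudocount of 0.1 in place of 0.5 it was 4.66 (SE 0.34, limma adjusted p = 8.58e-05). Chd5 reached the 0.5 RPKM needed for the test in Chd4dPax7ER libraries only, so it entered through the group where it is high. These p-values are therefore no independent support for the rise. In Chd4dPax7ER cells the mean of Chd5 lay above those of Chd6 and Chd9, whereas in Chd4fl/fl cells Chd5 stood last.

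In culture Chd5 stayed below 1 RPKM. It stood at 0.338, 0.498, 0.888 and 0.483 RPKM in AdCRE replicates 1 to 4, against 0.0645, 0.0749, 0.0983 and 0.0780 RPKM in AdGFP, from 96, 122, 242 and 141 reads in AdCRE and 16, 17, 24 and 29 reads in AdGFP. The lowest AdCRE library was above the highest AdGFP library, and AdCRE was 5.24 to 9.04 times as high within pairs. An exact permutation test over the 8 libraries gave p = 0.0286, the smallest that 4 against 4 allows.

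A gene needed 0.5 RPKM in at least 4 of the 8 cultures to enter the test across all genes, and Chd5 reached that level in 1 (AdCRE replicate 3). With that level and the pseudocount both lowered to 0.1, a choice made after seeing the data, the rise passed (log2 fold change 1.80, SE 0.27, limma adjusted p = 0.0295, and 0.00257 with the replicate block). Without any 1 pair the blocked log2 fold change stayed between 1.63 and 1.93 (adjusted p up to 0.0161). At the original pseudocount with no such level, the log2 fold change of 0.84 missed the threshold (limma adjusted p = 0.085). On the 0.1 scale the rise in vivo exceeded that in vitro by 2.86 (SE 0.45, limma adjusted p = 0.00341, where 3.73% of genes passed). The size of these fold changes depends on the pseudocount, because Chd5 in control libraries lies near or below it. In vitro Chd5 reached 0.1 RPKM in AdCRE libraries only, so it entered the tests at 0.1 through the group where it is high. Their p-values are therefore no independent support for the rise or for its difference between settings.

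Some markers of nerve-related cells moved with Chd5 in vivo, and others did not. Over all genes tested 14.7% rose there. Of 17 neuronal markers 9 were tested and 6 rose, and their summed level was 95.1 to 129 RPKM in Chd4dPax7ER, against 13.5 to 20.5 RPKM in Chd4fl/fl. Most of that sum was Sncg, a synuclein (58.9 ± 8.72 RPKM in Chd4dPax7ER, against 2.09 ± 0.839 RPKM in Chd4fl/fl), and Uchl1, a ubiquitin hydrolase (25.6 ± 4.87 RPKM in Chd4dPax7ER, against 2.74 ± 1.18 RPKM in Chd4fl/fl, SD, n = 4 each). The tubulin gene Tubb3 also rose, to 15.2 ± 3.76 RPKM in Chd4dPax7ER, against 5.94 ± 2.25 RPKM in Chd4fl/fl. The remaining genes that rose were lower in level, and they stayed under 0.5 RPKM in every Chd4fl/fl library. They therefore entered the test through Chd4dPax7ER libraries only, which raises the share that rose among genes tested. The neurofilament gene Nefm was at 1.58 ± 0.562 RPKM in Chd4dPax7ER and 0.193 ± 0.205 RPKM in Chd4fl/fl. Sncb, another synuclein gene, was at 1.33 ± 0.382 RPKM in Chd4dPax7ER and 0.108 ± 0.132 RPKM in Chd4fl/fl. Elavl3, which encodes a neuronal RNA-binding protein, was at 0.745 ± 0.258 RPKM in Chd4dPax7ER and 0.14 ± 0.114 RPKM in Chd4fl/fl. The neurofilament gene Nefh, not tested, was at 0.75 ± 0.242 RPKM in Chd4dPax7ER and 0.05 ± 0.0383 RPKM in Chd4fl/fl. Of the remaining defining markers, Elavl4 was listed at 0 in all 8 libraries, Snap25 in all 4 Chd4dPax7ER libraries, and Rbfox3 did not exceed 0.03 RPKM. Map2 was lower without passing (3.12 ± 1.14 RPKM in Chd4dPax7ER, against 4.80 ± 0.414 RPKM in Chd4fl/fl, log2 fold change -0.59, limma adjusted p = 0.057). Syp, not tested, was at 0.0525 ± 0.045 RPKM in Chd4dPax7ER and 0.3725 ± 0.0789 RPKM in Chd4fl/fl, without overlap. Dcx (0.42 and 0.4275 RPKM) and Syn1 (0.525 and 0.58 RPKM, in the same order) were level. Of 10 Schwann cell and glial markers 8 were tested and 4 rose, with sums of 56.6 to 116 RPKM in Chd4dPax7ER, against 40.8 to 52.4 RPKM in Chd4fl/fl. Mbp, a myelin gene, was at 7.15 ± 0.995 RPKM in Chd4dPax7ER and 0.663 ± 0.495 RPKM in Chd4fl/fl. Sox10, a defining factor of the glial lineage, was at 3.13 ± 0.926 RPKM in Chd4dPax7ER and 0.175 ± 0.132 RPKM in Chd4fl/fl. Sox10 and S100b, which also rose, likewise entered the test through Chd4dPax7ER libraries only. In culture the neuronal sum was 56.9 to 86.6 RPKM with AdCRE and 28.3 to 47.8 RPKM with AdGFP, and Rbfox3 was listed at 0 in all 8 libraries. The part of such cells in the level of Chd5 was not tested.

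In case cells the pool of the 3 NuRD ATPase transcripts was a mixture of Chd3 and Chd4, in which Chd3 was the larger in 4 of 4 AdCRE and 2 of 4 Chd4dPax7ER libraries, whereas Chd4 dominated it in each control library. Their summed RPKM was 49.9 ± 6.31 in AdCRE and 91.6 ± 9.72 in AdGFP (SD, n = 4 each), or 54.5% of the AdGFP sum. In vivo it was 125 ± 6.16 RPKM in Chd4dPax7ER and 158 ± 4.09 RPKM in Chd4fl/fl, or 79.1%. Chd4 made up 41.5% ± 3.64 of the sum in AdCRE and 82.0% ± 2.10 in AdGFP, and 45.2% ± 5.31 in Chd4dPax7ER and 79.8% ± 2.25 in Chd4fl/fl. Chd5 contributed 1.10% ± 0.443 in AdCRE and 5.32% ± 1.31 in Chd4dPax7ER, against 0.0869% ± 0.0188 in AdGFP and 0.113% ± 0.0745 in Chd4fl/fl.

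The RPKM gained by Chd3 and Chd5 amounted to 23.2% of the RPKM lost by Chd4 in vitro and to 52.4% in vivo. These are sums of chosen genes and carry no test, and they describe transcripts, not protein in the complex. The Chd3 to Chd4 ratio per library lay between 1.14 and 1.59 in AdCRE, against 0.174 to 0.236 in AdGFP, and between 0.860 and 1.31 in Chd4dPax7ER, against 0.206 to 0.289 in Chd4fl/fl.

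**Figure D2:**
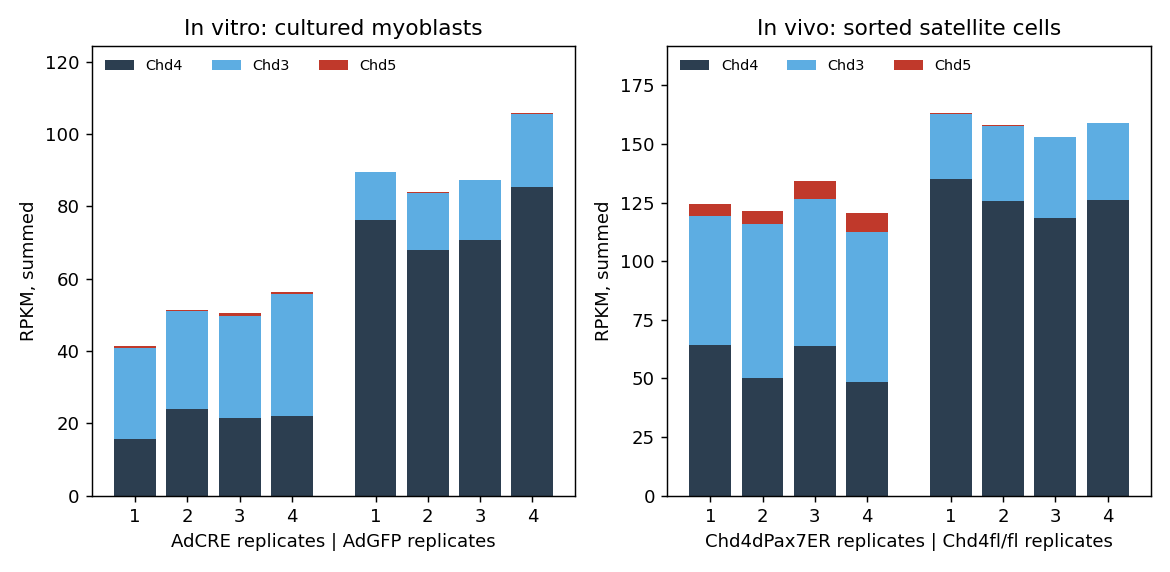
Summed RPKM of Chd4 (dark), Chd3 (blue) and Chd5 (red) in each library, AdCRE left of AdGFP and Chd4dPax7ER left of Chd4fl/fl. The total is lower in every case library than in every control library, and Chd3 takes up 44.4 to 60.9% of the case bars.

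Counted over the family, 5 of 9 members passed limma in vivo (Chd3 and Chd5 higher, Chd4, Chd6 and Chd8 lower), where 26.6% of the 13344 genes tested did (14.7% higher and 11.9% lower). The groups did not overlap for the same 5 members, where 30.3% of genes tested did not. In vitro 1 of the 8 members tested passed (Chd4), where 0.656% of 13567 genes did (0.516% higher and 0.14% lower). The groups did not overlap there for 3 of 9 members (Chd3, Chd4 and Chd5), where 10% of genes tested did not. With the replicate block 4 of the 8 passed in vitro (Chd3 higher, Chd1, Chd4 and Chd9 lower), where 36.2% of genes did (17.5% higher and 18.7% lower). With the level and pseudocount of 0.1, limma called 2 of 9 in vitro (Chd4 and Chd5), where 0.621% of genes passed, and with the block added 4 of 9 (Chd3 and Chd5 higher, Chd1 and Chd4 lower), where 27.4% did. Chd5 entered the in vivo test and the in vitro tests at 0.1 through case libraries only.

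**Figure D3:**
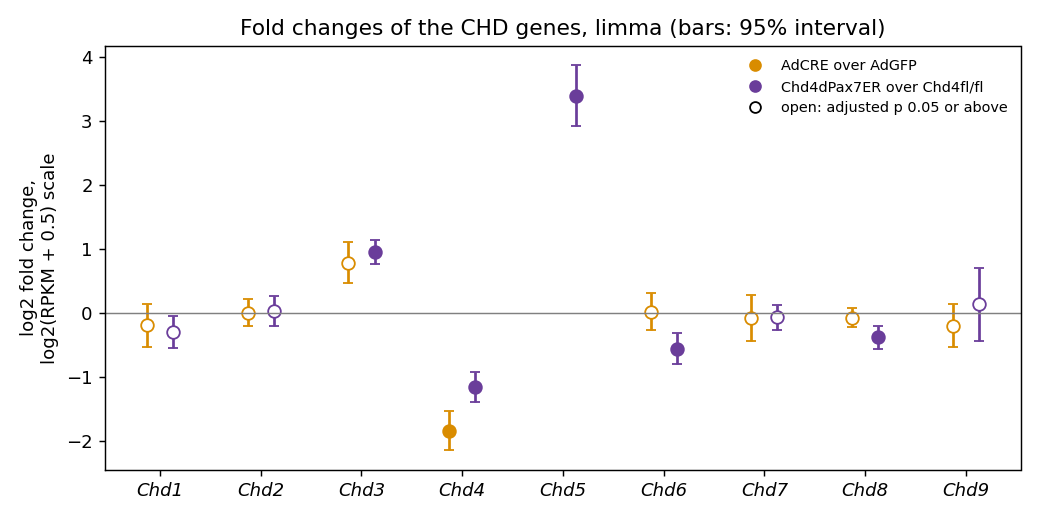
log2 fold change of each CHD gene on the log2(RPKM + 0.5) scale with its 95% interval from limma, AdCRE over AdGFP in orange and Chd4dPax7ER over Chd4fl/fl in purple; filled points passed at an adjusted p under 0.05. Chd5 in vitro has no point because it was below the level needed for the test. Chd3 lies at 0.78 in vitro and 0.95 in vivo. Chd6 and Chd8 have filled points, below 0, only in vivo, and in vitro they lie at 0.02 and -0.08.

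Chd6 and Chd8, both of the third subfamily, were lower in Chd4dPax7ER cells. Chd6 has been linked to the oxidative stress response. It stood at 5.43, 4.09, 4.90 and 4.98 RPKM in Chd4dPax7ER replicates 1 to 4, against 7.17, 7.32, 7.43 and 7.53 RPKM in Chd4fl/fl (log2 fold change -0.56, SE 0.11, limma adjusted p = 0.00556). Chd8, which represses beta-catenin targets, stood at 11.2, 9.25, 10.2 and 10.4 RPKM in Chd4dPax7ER, against 13.7, 13.4, 13.3 and 13.5 RPKM in Chd4fl/fl (-0.38, SE 0.08, limma adjusted p = 0.00906). The control values of both genes were tight, within 0.154 and 0.160 RPKM (SD, n = 4), and each case library lay below all of them. Both calls held without any 1 library (adjusted p up to 0.0186 for Chd6 and 0.0278 for Chd8).

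In culture neither gene passed. Chd6 averaged 4.26 ± 0.507 RPKM in AdCRE and 4.21 ± 0.655 RPKM in AdGFP (log2 fold change 0.02, 95% interval -0.27 to 0.30). Chd8 averaged 9.12 ± 0.293 RPKM in AdCRE and 9.66 ± 0.354 RPKM in AdGFP (-0.08, 95% interval -0.23 to 0.07), and was lower in 4 of 4 pairs. The difference between the settings missed the limma threshold for Chd6 (-0.58, SE 0.16, adjusted p = 0.0553) and Chd8 (-0.30, SE 0.10, adjusted p = 0.0898). With the replicate block both differences passed (limma adjusted p = 0.0150 for Chd6 and 0.0448 for Chd8). That block also joins in vivo libraries by number, which does not pair them, so these calls are not firmer than the unblocked ones. The unblocked difference of Chd6 passed without AdGFP replicate 4 (adjusted p = 0.0263) or Chd4dPax7ER replicate 1 (0.0446), under quantile scaling (0.0377) and with no trend (0.0465). The blocked difference of Chd8 was lost at a filter and pseudocount of 0.1 (adjusted p = 0.0504).

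Chd1, which acts with the elongating polymerase, was somewhat lower in both settings without passing the unblocked tests. It held 9.96, 8.84, 9.72 and 12.4 RPKM in AdCRE, against 11.6, 10.2, 10.4 and 15.2 RPKM in AdGFP (log2 fold change -0.19, SE 0.15, limma adjusted p = 0.584). The groups overlapped, but AdCRE was lower in 4 of 4 pairs, at 0.818 to 0.935 times its partner. The replicate block called this fall (limma adjusted p = 0.0181), a call lost without pair 1, 2 or 4 (adjusted p up to 0.0799). In vivo Chd1 held 24.7, 24.5, 33.3 and 30.4 RPKM in Chd4dPax7ER, against 38.2, 34.2, 34.1 and 31.7 RPKM in Chd4fl/fl (-0.29, SE 0.11, limma adjusted p = 0.0812). Without Chd4dPax7ER replicate 3, the highest of its group, it passed (adjusted p = 0.0317).

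Chd2, reported to associate with MyoD in muscle cells, was the flattest member. It averaged 9.51 ± 0.766 RPKM in AdCRE and 9.48 ± 0.816 RPKM in AdGFP, and 20.7 ± 2.77 RPKM in Chd4dPax7ER and 20.2 ± 1.53 RPKM in Chd4fl/fl. Its 95% intervals reached from -0.20 to 0.21 in vitro and from -0.20 to 0.26 in vivo on the log2 scale. Chd7, the gene mutated in CHARGE syndrome, averaged 5.96 ± 1.07 RPKM in AdCRE and 6.35 ± 1.07 RPKM in AdGFP, and 11.6 ± 0.629 RPKM in Chd4dPax7ER and 12.2 ± 0.940 RPKM in Chd4fl/fl. Its intervals were -0.44 to 0.27 in vitro and -0.26 to 0.12 in vivo.

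Chd9, first described in skeletal progenitors, varied widely among the in vivo libraries. It held 3.38, 5.74, 5.53 and 2.96 RPKM in Chd4dPax7ER, against 4.15, 2.43, 4.95 and 4.19 RPKM in Chd4fl/fl, so that the groups interleaved (log2 fold change 0.13, SE 0.25, 95% interval -0.44 to 0.71, limma adjusted p = 0.733). In culture it held 3.49, 4.86, 4.92 and 5.19 RPKM in AdCRE, against 4.47, 5.58, 5.04 and 6.43 RPKM in AdGFP (-0.20, SE 0.15, limma adjusted p = 0.561). All 4 pairs were lower, at 0.782 to 0.975 times. With the replicate block Chd9 passed (limma adjusted p = 0.0432), a call lost without pair 1, 2 or 4 (adjusted p up to 0.155).

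**Figure D4:**
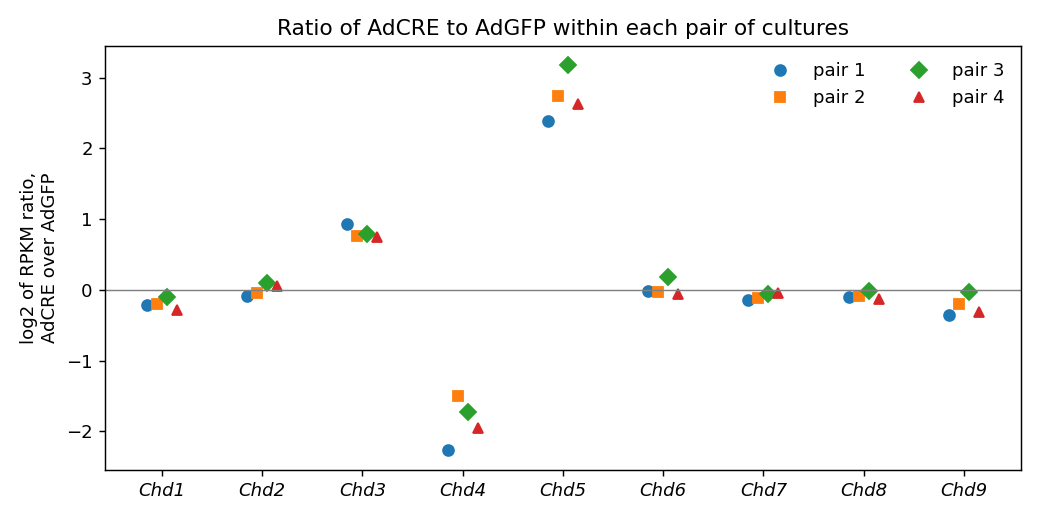
log2 ratio of RPKM in AdCRE over AdGFP within each of the 4 same-numbered pairs of cultures, 1 symbol per pair, for the 9 CHD genes. Chd3 and Chd5 are above 0 and Chd1, Chd4, Chd7, Chd8 and Chd9 below 0 in all 4 pairs, while Chd2 and Chd6 fall on both sides.

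Within pairs 7 of 9 members went 1 way in 4 of 4 (2 higher, 5 lower), a share to be read beside the 52.2% of all genes tested that did so. The 6 members outside the NuRD group summed to 93.2% of their AdGFP level in AdCRE cells (43.7 ± 2.63 RPKM in AdCRE, against 46.9 ± 2.71 RPKM in AdGFP) and to 87.3% of their Chd4fl/fl level in Chd4dPax7ER cells (80.0 ± 7.63 RPKM in Chd4dPax7ER, against 91.7 ± 4.38 RPKM in Chd4fl/fl, SD, n = 4 each).

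Among subunits and partners of the CHD enzymes the shares called were read beside those over all genes. Of the 12 NuRD subunits other than CHD ATPases, none passed limma in vitro, and with the replicate block 3 were higher and 1 lower, a share near the 36.2% of all genes that the block called. In vivo 2 rose and 3 fell, where 26.6% of all genes passed (median log2 fold change -0.03, against -0.02 over all genes tested). Mta3, one of the MTA scaffold genes, was higher in vivo (4.18 ± 0.409 RPKM in Chd4dPax7ER, against 2.51 ± 0.637 RPKM in Chd4fl/fl, log2 fold change 0.66, limma adjusted p = 0.0247), and so was the deacetylase gene Hdac1 (0.34, adjusted p = 0.0224). The other scaffold gene Mta1 fell (26.1 ± 4.08 RPKM in Chd4dPax7ER, against 38.6 ± 0.959 RPKM in Chd4fl/fl, -0.57, limma adjusted p = 0.00425), as did the histone-binding subunit gene Rbbp4 (-0.29, adjusted p = 0.0267).

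Of 19 other partners tested, among them FACT, HP1 and polymerase-associated factors, 2 rose and 4 fell in vivo, near the share of 26.6% over all genes. Cbx1 and Cbx5, which encode HP1 proteins, fell by 0.65 and 0.58 on the log2 scale (limma adjusted p = 0.00085 and 0.00124), and Wdr5, a subunit of histone methyltransferase complexes, fell by 0.39 (adjusted p = 0.00488). Adnp2, a paralogue of the Chd4 partner Adnp, rose by 0.61 (adjusted p = 0.0176). In vitro none passed, and the block called 1 higher and 13 lower, where it called 17.5% of all genes higher and 18.7% lower.

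ATPase genes of other remodeller families ran mostly lower. In vivo 10 of 20 fell and 1 rose, where 11.9% of all genes fell and 14.7% rose, with a median log2 fold change of -0.36. Smarcad1, Zranb3 and Ino80 fell by 0.68, 0.65 and 0.64, and Smarca1, an ISWI ATPase, was the one that rose (2.62 ± 0.902 RPKM in Chd4dPax7ER, against 0.597 ± 0.302 RPKM in Chd4fl/fl, 1.49, limma adjusted p = 0.00559). In vitro none of 19 passed (median -0.16), and the block called 10 lower and none higher, where it called 18.7% of all genes lower and 17.5% higher.

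**Figure D5:**
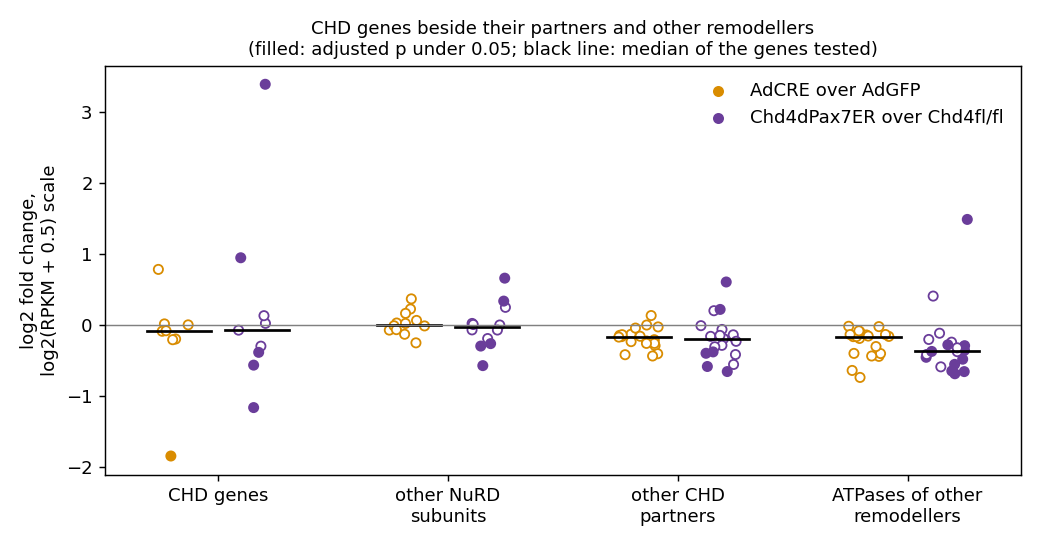
log2 fold change of each gene tested, on the log2(RPKM + 0.5) scale, for the CHD genes, other NuRD subunits, other CHD partners and ATPases of other remodeller families, AdCRE over AdGFP in orange and Chd4dPax7ER over Chd4fl/fl in purple. Filled points passed limma, and black lines are medians of the genes tested. In vivo the median of the other ATPases is -0.36, and that of the other NuRD subunits is -0.03.

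Proliferation genes ran lower and muscle differentiation genes ran higher. Over all genes tested, 11.9% fell and 14.7% rose in vivo, and the block called 17.5% higher and 18.7% lower in vitro. Of 12 cell cycle genes 5 fell in vivo, with summed levels of 234 to 441 RPKM in Chd4dPax7ER and 458 to 633 RPKM in Chd4fl/fl, and all 12 were lower in vitro with the replicate block (none without it). Of 15 differentiated muscle genes tested 13 rose in vivo, and 13 in vitro with the block (none without it). Their part in the changes of the CHD genes was not tested.

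Genes next to the CHD loci did not all follow them. Rgma, within 10 kb of Chd2, was at 15.6 ± 1.58 RPKM in Chd4dPax7ER and 8.20 ± 1.00 RPKM in Chd4fl/fl, without overlap, while Chd2 was level. In culture Rgma was at 1.47 ± 0.815 RPKM in AdCRE and 1.24 ± 0.567 RPKM in AdGFP. Supt16, within 10 kb of Chd8, was at 58.1 ± 8.72 RPKM in Chd4dPax7ER and 71.5 ± 8.34 RPKM in Chd4fl/fl (log2 fold change -0.30, limma adjusted p = 0.102). Rnf227, annotated within 10 kb of 1 end of Chd3, was at 3.35 ± 1.20 RPKM in Chd4dPax7ER and 1.57 ± 0.320 RPKM in Chd4fl/fl, and at 3.01 ± 0.235 RPKM in AdCRE and 2.17 ± 0.374 RPKM in AdGFP. Kcnab3, listed with the Chd3 locus, rose in vivo (1.51 ± 0.196 RPKM in Chd4dPax7ER, against 0.657 ± 0.233 RPKM in Chd4fl/fl, log2 fold change 0.81, limma adjusted p = 0.0173). Beside Chd5, Rpl22 was level at 136 ± 10.0 RPKM in Chd4dPax7ER and 138 ± 6.03 RPKM in Chd4fl/fl, and Kcnab2 did not exceed 0.48 RPKM in either. Nop2, beside Chd4, was at 52.2 ± 3.35 RPKM in Chd4dPax7ER and 47.8 ± 4.63 RPKM in Chd4fl/fl. In culture it was at 42.9 ± 3.78 RPKM in AdCRE and 52.4 ± 7.32 RPKM in AdGFP (log2 fold change -0.28, limma adjusted p = 0.268), and the replicate block called it lower (adjusted p = 0.00426). The noncoding RNA Chaserr, which in mouse limits Chd2 expression and overlaps the Chd2 locus, was at 5.04 ± 1.10 RPKM in Chd4dPax7ER and 6.11 ± 1.31 RPKM in Chd4fl/fl. The labels do not say whether counting used strand, so reads of overlapping genes cannot be told apart.

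Over the 8 in vivo libraries the genes whose log2(RPKM + 0.5) ran most like Chd5 were Fgd5, Efcab2 and Tro (Pearson r 0.998, 0.997 and 0.997), and those least like it were Ryk, Pcgf3 and Ap4m1 (r -0.993, -0.992 and -0.991). Most like Chd3 were Sorcs2, Isyna1 and Tbrg1 (r 0.996, 0.995 and 0.995), and least like it Ctdsp1, Myb and Ap4m1. Wrnip1, Ccdc163 and Pgap1 ran most like Chd4 (r 0.997, 0.993 and 0.993), and Dab2ip, Tram2 and Rnf141 least. In culture Smad9, Sema4g and Fut11 ran most like Chd3, and Osgep, Nenf and Fam171a1 least. Txndc12, Rad51d and Mtrr ran most like Chd4 there, and Iqcb1, Rsad2 and Sec23a least. Different genes were named in the 2 settings. These r values are maxima and minima over 13343 genes in vivo and 13566 in vitro, and they mostly carry the contrast between case and control libraries.

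Depth and purity set the limits of these values. Reads per library, recovered from the steps between low RPKM values, were 23.7 to 38.8 M in vitro and 6.00 to 6.82 M in vivo (M, mega), and Chd3 and Chd4 rested on at least 1490 reads in every library. Markers of the labelled cells were present: Pax7 was at 11.5 ± 2.94 RPKM in Chd4dPax7ER and 21.3 ± 6.43 RPKM in Chd4fl/fl, and Myod1 at 132 ± 20.96 RPKM in Chd4dPax7ER and 65.7 ± 10.5 RPKM in Chd4fl/fl. Ly6a, which encodes the sort marker SCA1, was at 8.86 ± 2.93 RPKM in Chd4dPax7ER and 5.52 ± 3.05 RPKM in Chd4fl/fl (log2 fold change 0.77, limma adjusted p = 0.191). Ptprc, which encodes CD45, did not exceed 0.59 RPKM in sorted cells, but other leukocyte markers were higher. Lyz2 was at 84.2 ± 27.3 RPKM in Chd4dPax7ER and 56.7 ± 19.7 RPKM in Chd4fl/fl, Cd14 at 19.4 ± 5.83 RPKM in Chd4dPax7ER and 16.7 ± 6.12 RPKM in Chd4fl/fl, and Cd68 at 15.7 ± 5.31 RPKM in Chd4dPax7ER and 10.1 ± 2.47 RPKM in Chd4fl/fl. The leukocyte list summed to 111 to 231 RPKM in Chd4dPax7ER and 84.6 to 170 RPKM in Chd4fl/fl. Marker lists of other cells had higher sums in vivo for fibroblasts (214 to 357 RPKM in Chd4dPax7ER and 88.8 to 114 RPKM in Chd4fl/fl, 3 of 7 rose), pericytes (3 of 5 rose), endothelium (1 of 3) and leukocytes (1 of 13). Over all genes tested in vivo 14.7% rose. In vitro 1 gene each of the neuronal, fibroblast and pericyte lists rose and none of the leukocyte, Schwann or endothelial lists, where 0.516% of all genes rose. With the replicate block 5 of 8 neuronal, 3 of 4 pericyte and 2 of 3 leukocyte genes tested (Cd68 and Laptm5) were called higher there. So were 1 of 3 Schwann (Erbb3), 1 of 2 endothelial (Tek) and 1 of 3 fibroblast genes, and 2 of 3 fibroblast genes were lower. The block called 17.5% of all genes higher and 18.7% lower. The labels do not say how reads shared between the related Chd3, Chd4 and Chd5 sequences were assigned.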

How the data were processed

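RNA-seq libraries of 16 mouse samples were used. The authors deposited RPKM values per gene in a table for each setting. The submitters' processing notes name HISAT2 2.1.0, cutadapt 1.18 and the builds mm10 and GRCm38, without saying which steps made these tables. In vivo values are rounded to 2 decimals.

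Values were taken as log2(RPKM + 0.5). A gene was tested at 0.5 RPKM or more in at least 4 of 8 libraries. limma 3.58.1 (trend, R 4.3.3) was fitted within each table, with Benjamini-Hochberg adjustment over all genes tested and a threshold of 0.05. Fold changes of the settings were compared in 1 fit with a term for the table. Low values in vitro are whole multiples of 1 read. Gene lengths solved from these steps came out whole for 99.8% of 10074 low genes in vitro (tolerance 0.02). For each gene in vitro the smallest length that gave whole reads was then taken. With these lengths, reads came out whole within rounding for 99.6 to 99.9% of the short, low genes used in vivo. These reads serve as a description of depth only. Fits with the filter and pseudocount both at 0.1 were added after seeing the data. The fit was tested on simulated data.

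Exact permutation tests (each with both tails) of each member over the 70 arrangements gave 0.0286, the smallest possible, for the genes whose groups do not overlap; within the 16 exchanges of pairs in vitro the smallest possible is 0.125. The labels number replicates 1 to 4 in each group. Deviations from the group means of same-numbered libraries correlated at 0.711 to 0.856 in vitro, so the numbers pair those cultures, and at -0.0967 to 0.0499 in vivo, where they do not.

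The members and the lists of partner and marker genes were chosen with earlier results of these data known. Named genes are all members, at most 4 called genes of a list with the largest changes, the 3 genes most and least like Chd3, Chd4 and Chd5, and genes that overlap a member or lie within 10 kb of it. Other marker genes (Elavl4, Snap25, Rbfox3, Nefh, Elavl3, Tubb3, Map2, Syp, Dcx, Syn1, Erbb3, Tek, Pax7, Myod1, Ly6a and the leukocyte genes) were named after their values were seen.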

Additional observations from a re-analysis of the deposited data

Results flagged for a closer look

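The fold change of Chd4 differed between the settings by 0.68 on the log2 scale (in vivo minus in vitro, limma adjusted p = 0.0429), with a smaller fall in sorted cells. All 4 case libraries were below all 4 control libraries in each setting. This difference is listed because it passed the test of the difference itself, which it did not under 4 other settings. The rise of Chd5 differed by 2.86 on the log2(RPKM + 0.1) scale (in vivo minus in vitro, limma adjusted p = 0.00341), with the larger rise in sorted cells and with higher values in 4 of 4 case libraries than in any control library in both settings. In vitro Chd5 met the filter of that fit through AdCRE libraries only. The cause of neither difference was tested. No library stood far from its group for any member, in 36 groups of 4 libraries examined with Dixon's test, where chance alone would mark about 1 group in 20.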

How the results depend on the processing

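In vivo, the calls of all 9 CHD genes kept their side of the threshold under every other filter, pseudocount, scaling and trend setting tried and with the replicate block, which changed no member's call there. Across the log2 fold changes of CHD genes (in vitro, in vivo and their difference) and all alternatives, 457 of 518 kept direction and side of the threshold. Of the rest, 16 lost the call, 16 gained it and 29 changed sign. Counts of genes called are not among the 518. In vitro the count of genes called depended on pairing: 89 without the replicate block, 4907 with it, 4819 with it at a filter and pseudocount of 0.1, and 16 to 44 without 1 library. Of CHD genes, those called higher in vitro numbered 0 in the unblocked fit, 1 under TPM scaling, 1 with the block, 1 at 0.1 and 2 at 0.1 with the block, and those called lower numbered 1 in the unblocked fit, 3 with the block and 2 at 0.1 with the block. Chd3 in vitro had a log2 fold change of 0.78 with the block (limma adjusted p = 0.00016) and 0.80 at 0.1 with the block. Chd5 in vitro had 1.54 under TPM scaling (limma adjusted p = 0.0456) and 1.80 at 0.1, with and without the block. TPM values are larger than RPKM values here, so under TPM scaling the filter and pseudocount of 0.5 were in effect lower too. Under TPM scaling and at 0.1 Chd5 entered the test through AdCRE libraries only. For the difference between settings, 492 genes were called without the block, 1688 with it, 1679 at 0.1 with it, and 260 to 532 without 1 library. The block of that fit also joins in vivo libraries by number, which does not pair them. Of the 492 calls 58.94% were higher in vivo, against 47.91% after quantile scaling. The Chd4 difference missed the threshold with no filter and with no trend (0.68 in both), under TPM scaling (0.67) and quantile scaling (0.65), and was 0.56 to 0.75 without 1 library. The cause of these changes was not tested.

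Small effects changed sign. Under TPM scaling the log2 fold change was -0.020 for Chd2 and -0.0046 for Chd6 in vitro and -0.025 for Chd2 in vivo, where quantile scaling gave -0.00025. The differences of Chd2 and Chd7 were -0.0047 and -0.0077 under TPM scaling, and -0.031 and -0.041 under quantile scaling. Without 1 library the ranges were -0.051 to 0.046 (Chd2), -0.048 to 0.11 (Chd6) and -0.17 to 0.019 (Chd7) in vitro, -0.060 to 0.078 (Chd2) and -0.053 to 0.29 (Chd9) in vivo, and -0.065 to 0.077 (Chd2) and -0.089 to 0.10 (Chd7) for the difference. Depth limits Chd5 most, with 4 to 29 reads in control libraries. Identities between the CHD proteins were planned and not run.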
